A study of Rattus norvegicus with 6 samples.

Results

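Genes by which cells of the renal medulla handle organic osmolytes and urea were followed in rat kidney: Akr1b1, Sord, Slc5a3, Slc6a6, Slc6a12, Nfat5 and Slc14a2. All probe sets that the platform annotation pairs with 1 of these 7 symbols were taken. Of the 7 genes, 6 were among the 14217 genes with a probe set, and they had 15 of the 31042 probe sets in the table, of which 12 were bright enough to be tested. No probe set paired with Slc6a12, the betaine transporter BGT1, so it was not analysed here. The 12 tested probe sets cover Akr1b1 and Slc5a3 with 1 each, Sord, Slc6a6 and Nfat5 with 2 each and Slc14a2 with 4.

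Cells of the renal medulla live in a concentrated fluid rich in salt and urea, and they balance it by storing small organic osmolytes: sorbitol, myo-inositol, betaine, taurine and glycerophosphocholine. The transcription factor encoded by Nfat5, also known as TonEBP, binds tonicity elements in DNA when the surroundings become hypertonic and switches on the genes that make or import these solutes. Urea itself is moved through the medulla by facilitated urea transporters, which help the kidney to concentrate urine.

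Transcripts were measured in whole kidney from male rats of 2 strains on Affymetrix rat expression arrays. The congenic rats carry a segment of chromosome 9 of another strain, called R in the strain symbol, on the Dahl salt-sensitive (S) background. S rats, which become hypertensive on a salt-rich diet, were the controls, and both strains ate a 2% salt diet after weaning and were killed at 53 days of age. Each strain gave 3 pools of RNA from 2 rats, with 1 array per pool, so that a pool is 1 replicate. All rats shared the S background and the salt diet, and no group on a low-salt diet was analysed here. None of the 6 measured genes lies on chromosome 9 in the RefSeq table.

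Values are MAS5 signals, a linear brightness per probe set with a trimmed mean of about 150 on every array as deposited. Fold changes are congenic over S on the scale of log2(signal + 16), tested with limma over all 18625 probe sets whose mean signal reached the 40th percentile, about 25.6. Spearman correlations between arrays, across probe sets, were 0.969 to 0.977. The proximal tubule endocytic receptor Lrp2 was at 4948 to 5719 and the thick limb protein Umod at 6576 to 7010, while Slc5a2 (87.1 to 191) and Avpr2 (72.2 to 107) were dimmer tubule markers. Transcripts of other organs stood out on 2 arrays. The 7 hepatocyte markers summed to 9432 on congenic array 1, against 106 to 197 on the other 5 arrays, and the 5 adrenal markers to 5506 on congenic array 3, against 128 to 142. The ratio of the 3′ to the 5′ probe signal of a control transcript grows as RNA degrades. For actin it was 6.15 to 7.17 on the congenic arrays and 6.54 to 9.42 on the S arrays. For Gapdh it was 1.62 to 1.68 on the congenic arrays and 1.5 to 1.77 on the S arrays. Both ratios were highest on S array 1.

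To show where Nfat5 could meet its targets in the DNA, the start regions of the transporter genes Slc6a6 and Slc5a3 are printed. They run 5′ to 3′ from 250 bases before to 50 bases after the RefSeq start of transcription. Both lie on the plus strand of the GRCr8 rat assembly, at chr4:125752252-125752551 for Slc6a6 and at chr11:44799537-44799836 for Slc5a3. Capitals mark the match to the tonicity element.
Slc6a6: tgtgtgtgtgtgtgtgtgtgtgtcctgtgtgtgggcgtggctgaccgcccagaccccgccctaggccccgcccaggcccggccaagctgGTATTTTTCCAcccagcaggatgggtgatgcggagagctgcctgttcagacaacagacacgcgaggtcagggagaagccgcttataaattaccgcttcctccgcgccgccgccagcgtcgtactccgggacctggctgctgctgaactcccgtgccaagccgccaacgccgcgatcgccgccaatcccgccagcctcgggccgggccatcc
Slc5a3: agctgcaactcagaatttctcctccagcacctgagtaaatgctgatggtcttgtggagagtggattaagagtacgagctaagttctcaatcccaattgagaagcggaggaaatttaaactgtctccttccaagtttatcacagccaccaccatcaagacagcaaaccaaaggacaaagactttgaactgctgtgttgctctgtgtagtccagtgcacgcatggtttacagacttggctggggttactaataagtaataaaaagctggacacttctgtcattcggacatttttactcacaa

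The Slc6a6 window held 1 match to the tonicity element consensus. It lay on the opposite strand, where it reads TGGAAAAATAC, and its nearest base was 151 bases before the start. The consensus begins with the 6 bases TGGAAA, and both strands were searched for them and for the full element, of which they are a part. Among the members, 5 genes had 6 windows in the table: Sord, Slc6a6, Slc6a12, Slc5a3 and 2 windows of Slc14a2. The Slc6a6 window was the 1 of 6 that held either the short or the full motif. Of all 33469 RefSeq windows of this length, 22.7% held TGGAAA and 5.98% the full element. A match of letters is not a shown binding site, and for the other windows it says only that these letters were not in this stretch.

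No member gene differed between congenic and S kidneys past the threshold. Over all tested probe sets limma called 0.0% (0 of 18625) at an adjusted p under 0.05, and 0 of the 12 member probe sets. At an unadjusted p under 0.05 it marked 6.61% of all tested probe sets, 3.09% as higher in congenic kidneys, and 2 of the 12. These were the brightest probe sets of Slc5a3 and Slc6a6, both higher in congenic kidneys, at adjusted p-values of 0.750 and 0.753. Both lay above an unadjusted p of 0.05 in limma fits without trend (0.0759 for Slc5a3, 0.105 for Slc6a6) or without a filter (0.0515 and 0.0623). By the brightest probe set of each gene, 5 of 6 genes had a positive log2 fold change, where 47.4% of all tested genes did, and so had 9 of the 12 probe sets, where 48.8% of all tested probe sets did. Their median was 0.086, against -0.0068 for all 10658 tested genes. The groups overlapped in all 6 genes and all 12 probe sets, whereas 12.7% of all tested genes and 12.5% of all tested probe sets had groups that did not overlap. Averaged over all probe sets of a gene, dim ones included, Akr1b1 (-0.043) and Sord (0.030) changed sign, and Slc5a3 was at 0.087.

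**Figure D1:**
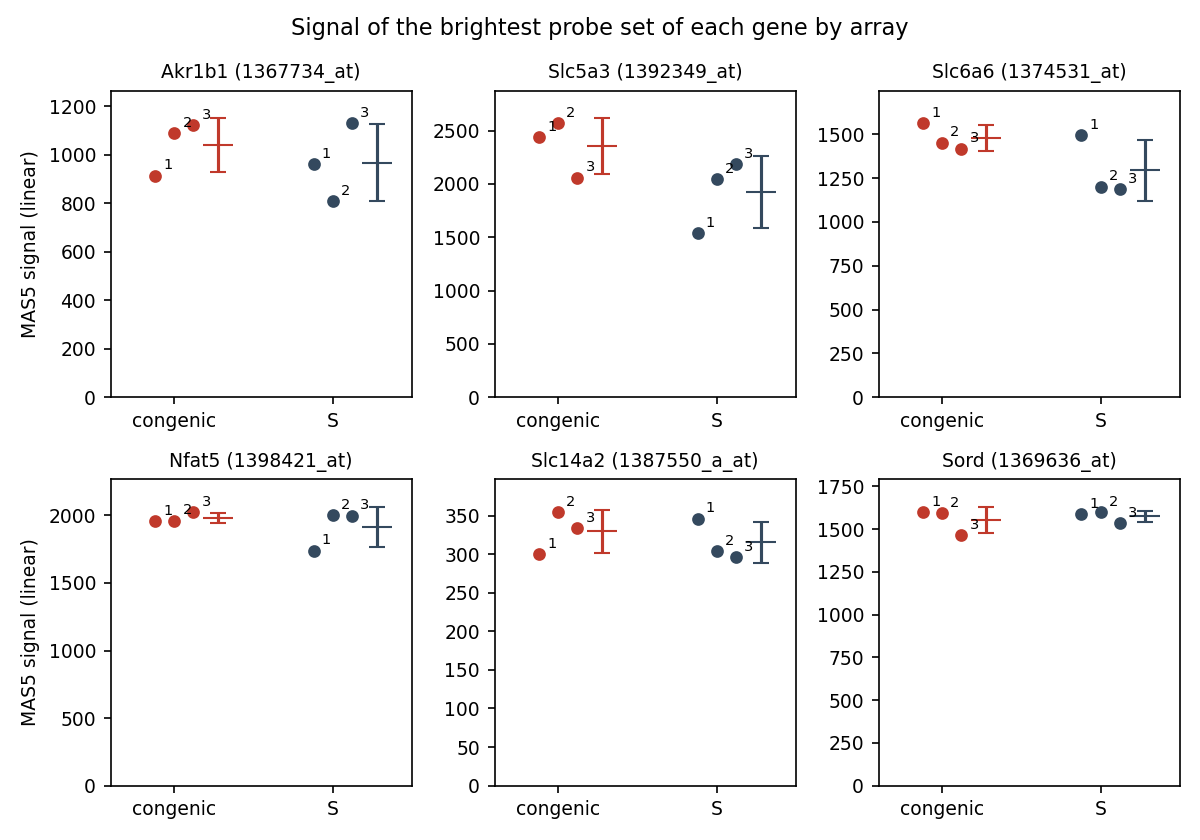
Linear MAS5 signal (y axis, from 0) of the brightest probe set of each measured gene on the 3 congenic and 3 S arrays; numbers are the replicates, and bars show mean ± SD (n = 3 each). In every panel the congenic and S points overlap, and for Slc5a3 S array 1 lies below the other 5 arrays.

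Sorbitol is made from glucose by aldose reductase, the product of Akr1b1, and removed by sorbitol dehydrogenase, the product of Sord, which oxidises it to fructose. The signal of Akr1b1 (probe set 1367734_at) was 914, 1089 and 1121 on the congenic arrays, against 962, 809.8 and 1129 on the S arrays. The highest and the lowest value were both on S arrays, so that the S group spanned the congenic one. Means were 1041 ± 111 in congenic and 967 ± 159.6 in S pools (SD, n = 3 each). The log2 fold change was 0.11 (SE 0.115, limma adjusted p = 0.867). Without S array 2, the lowest one, it was -0.0069. A dimmer probe set of Akr1b1 lay below the filter at 6.80 to 27.0 on congenic and 14.3 to 32.5 on S arrays.

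By its brightest probe set, Sord was the steadiest of the 6 genes. The signal of its brightest probe set (1369636_at) was 1600.2, 1594 and 1465 on the congenic arrays, against 1586, 1599 and 1536 on the S arrays. The ratio of the highest to the lowest array was 1.09. The log2 fold change was -0.019 (SE 0.0548, limma adjusted p = 0.959), and its 95% interval ran from 0.907-fold to 1.07-fold. A second probe set (1369635_at) measured 563, 520.2 and 459 on congenic arrays, against 482, 468 and 502 on S arrays, a log2 fold change of 0.080. Its ratio of the highest to the lowest array was 1.23, above the 1.16 and 1.21 of the 2 Nfat5 probe sets. Congenic array 1, the one with hepatocyte transcripts, had the highest value of both Sord probe sets, and without it the second one was at 0.014. The part of these transcripts in the Sord signal was not tested.

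Myo-inositol is carried into cells with sodium by the transporter of Slc5a3, known as SMIT, a classical target of Nfat5. The signal of Slc5a3 (1392349_at) was 2439, 2567 and 2059 on the congenic arrays, against 1537, 2043 and 2182 on the S arrays. Congenic arrays 1 and 2 lay above all S arrays, congenic array 3 lay within the S range, and S array 1 was the lowest of the 6. Means were 2355 ± 264 in congenic and 1921 ± 339 in S pools (SD, n = 3 each). The log2 fold change, the largest among the 12 tested member probe sets, was 0.30 (SE 0.123, 95% interval 0.028 to 0.57, limma adjusted p = 0.750). Its size rested largely on S array 1, without which it was 0.15. Without congenic array 3, with the adrenal transcripts, it was 0.39, and the groups no longer overlapped, as for 22.1% of all tested genes in that comparison. Without congenic array 1 it was 0.27, and without congenic array 2 it was 0.24. Congenic array 2, which carried neither the hepatocyte nor the adrenal transcripts, had the highest Slc5a3 signal of the 6 arrays. Set alone against the S arrays, a comparison chosen after seeing the data, it gave 0.43. A second probe set of Slc5a3 was dim, at 0.284 to 14.3 on the 6 arrays, and was not tested.

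The sums of medulla and of collecting duct markers did not overlap between the strains, but most single markers did. The summed signal of 7 collecting duct markers was 5508 to 6538 on congenic and 4861 to 5343 on S arrays, with 5 of 7 at a positive log2 fold change and a median of 0.17. Groups did not overlap for 2 of these 7, Aqp2 (0.23) and Aqp3 (0.43). Of all tested genes, 12.7% had groups that did not overlap. Aqp2 and Aqp3 also made up most of the sum, with mean signals of 2960 and 1175. The other markers of this list had means of 85.9 to 442. Aqp4 (0.21), Scnn1g (0.17) and Avpr2 (0.0043) were also above 0, while Scnn1b (-0.045) and Fxyd4 (-0.021) were below 0. No such share was computed for sums. The 3 measured markers of the medulla and thin limb, of 4 listed, summed to 6128 to 6638 on congenic and 5620 to 5812 on S arrays. The largest part of this sum was Aqp1, with overlapping values of 3273 to 3569 on congenic and 3221 to 3358 on S arrays. Cryab gave most of the rest, and Slc4a11 was dimmer. Whether Aqp1 reads the medulla alone in whole kidney RNA was not tested, so this sum is not a measure of medulla content. Beside that 12.7% of all tested genes, groups did not overlap for 1 of these 3 markers. This was Cryab, a small heat shock protein abundant in the medulla, at 2585, 2822 and 2857 in congenic and 2196, 2234 and 2268 in S pools, a log2 fold change of 0.30 (limma adjusted p = 0.341), singled out after its values were seen. Proximal tubule markers of the cortex summed to 15849 to 16734 on congenic and 15910 to 18584 on S arrays, with 0 of 7 at a positive log2 fold change and a median of -0.086. No marker of these 3 lists had a signal of 0. Urothelium markers, 5 measured of 6 listed, summed to 199 to 255 on congenic and 253 to 309 on S arrays, with Upk1a at -0.29, Upk1b at -0.29 and Upk3a at -0.35 on the log2 fold change scale. Krt5 was at -0.21 and passed the filter only through the S group, with means of 23.3 in congenic and 29.8 in S pools. Upk2 went the other way at 0.13, but was too dim to be tested. More medulla in a sample and more transcript per cell cannot be told apart in whole kidney RNA, and their part in the Slc5a3 values was not tested.

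Taurine enters cells through the sodium- and chloride-dependent transporter of Slc6a6. The signal of its brightest probe set (1374531_at) was 1562, 1452 and 1417 on the congenic arrays, against 1496, 1201 and 1188 on the S arrays. All congenic arrays lay above S arrays 2 and 3, while S array 1 lay within the congenic range. Means were 1477 ± 75.6 in congenic and 1295 ± 174 in S pools (SD, n = 3 each). The log2 fold change was 0.20 (SE 0.087, 95% interval 0.0014 to 0.39, limma adjusted p = 0.753). Without S array 1 it was 0.30 and the groups no longer overlapped, as for 22.0% of all tested genes in that comparison. The second probe set (1368778_at) measured 249.8, 191 and 202 on congenic arrays, against 214, 176 and 197 on S arrays. Its log2 fold change was 0.12, and 0.012 when congenic array 1 was left out.

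S array 1 thus stood at opposite ends for the 2 transporters: it was the lowest of all arrays for Slc5a3 and the second highest for Slc6a6. This is the array with the actin ratio of 9.42 and the Gapdh ratio of 1.77. The part of RNA quality in either transporter value was not tested.

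Nfat5, the regulator itself, varied little. The signal of its brightest probe set (1398421_at) was 1958, 1961 and 2026 on the congenic arrays, against 1739.8, 2001 and 1998 on the S arrays. Apart from S array 1, which was the lowest, the 5 arrays lay between 1958 and 2026. The log2 fold change was 0.054 (SE 0.0626, limma adjusted p = 0.884), with a 95% interval of 0.942-fold to 1.14-fold, and it was -0.013 without S array 1. The second probe set (1372772_at) had a log2 fold change of -0.035, with 655, 698 and 716 on congenic arrays, against 653, 682 and 791 on S arrays. Nfat5 is controlled to a large part through its protein, which arrays do not measure.

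Slc14a2 encodes the urea transporters of the UT-A type, which serve the inner medullary collecting duct and the thin descending limb as different isoforms of 1 gene. The signal of its brightest probe set (1387550_a_at) was 300.3, 355 and 333 on the congenic arrays, against 346, 303 and 296 on the S arrays. The highest array was congenic and the lowest was S, with S array 1 above 2 of the 3 congenic arrays. Means were 329 ± 27.4 in congenic and 315 ± 26.8 in S pools (SD, n = 3 each). The log2 fold change was 0.061 (SE 0.0867, limma adjusted p = 0.908) with a 95% interval of 0.912-fold to 1.19-fold.

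The other probe sets of Slc14a2 were dim. Those that passed the filter ranged from 26.3 to 57.4 on congenic and 20.6 to 51.9 on S arrays. Their log2 fold changes were 0.094 (1398312_s_at), -0.082 (1371205_at) and 0.12 (1370494_at), each with a 95% interval that spanned 0. The fifth (1371204_at) lay below the filter at 1.05 to 11.4 on congenic and 0.787 to 12.9 on S arrays. Which UT-A isoform each probe set reads was not analysed here. The plot of fold changes shows that the intervals were widest for these dim probe sets, so a given change was least detectable there.

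**Figure D2:**
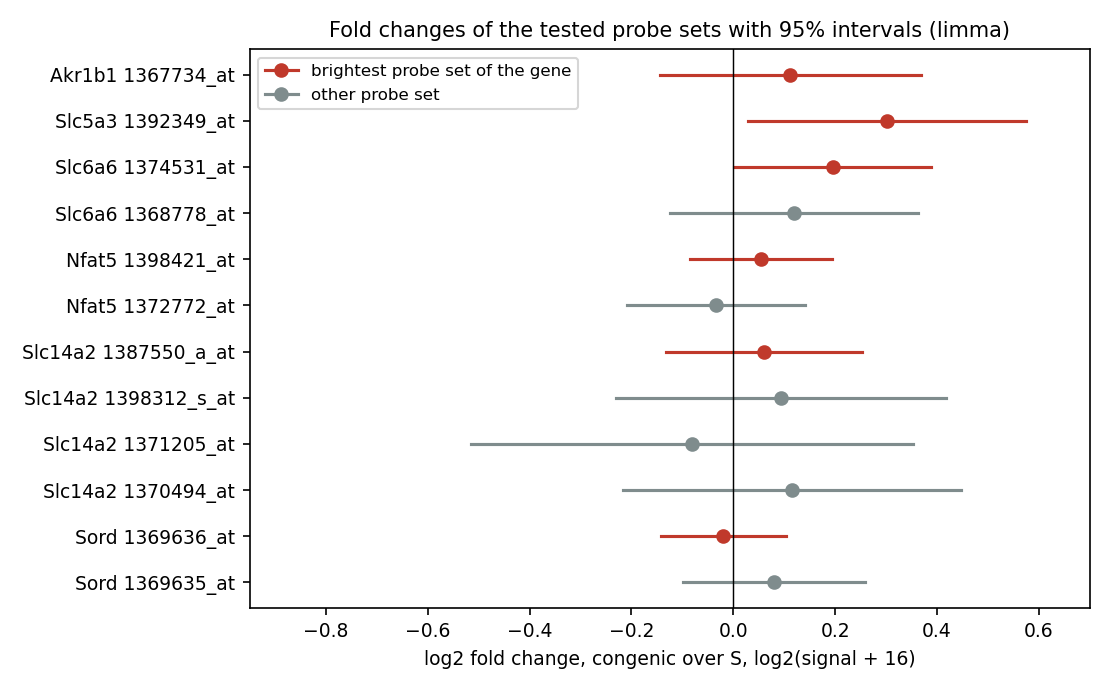
Log2 fold change of congenic over S (x axis, log2(signal + 16) scale) with its 95% interval from limma for the 12 tested probe sets, the brightest of each gene in red and the others in grey. The intervals of Slc5a3 1392349_at and Slc6a6 1374531_at lie above 0 before adjustment for the number of probe sets, and all other intervals span 0.

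The 6 genes did not share 1 pattern over the arrays. Congenic array 2 lay above the mean of the 6 arrays for 6 of 6 genes, with a median of 0.10 on the log2 scale, and congenic arrays 1 and 3 for 4 of 6 each. S arrays 1, 2 and 3 lay above it for 3, 2 and 3 genes. The highest array was congenic 1 for Slc6a6 and Sord, congenic 2 for Slc5a3 and Slc14a2, congenic 3 for Nfat5 and S 3 for Akr1b1. Between pairs of members, Pearson correlations over the 6 arrays ran from -0.655 for Akr1b1 and Sord to 0.729 for Slc5a3 and Nfat5, a description over points that share their scaling and, for Slc5a3 and Nfat5, their lowest array.

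**Figure D3:**
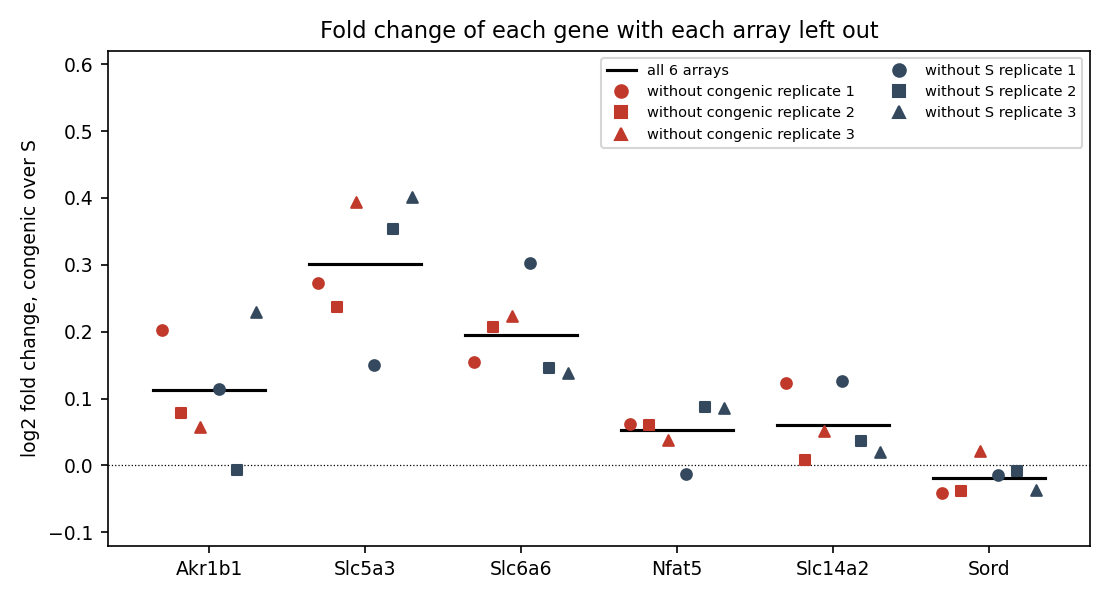
Log2 fold change of congenic over S (y axis) of each gene's brightest probe set with all 6 arrays (black line) and with each array left out (red for congenic, dark blue for S; circle, square and triangle for replicates 1, 2 and 3). Slc5a3 ranged from 0.15 to 0.40 and Slc6a6 from 0.14 to 0.30, while Akr1b1, Nfat5 and Sord crossed 0.

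Genes with the most similar array profile were sought for each member, as the smallest root mean square difference of centred log2 values over the 6 arrays. Only tested probe sets with 1 symbol and an SD of at least 0.5 times that of the member were searched, from 6445 for Slc5a3 to 13988 for Sord. For Slc5a3 they were Irf2bp2, at a difference of 0.0345, and Tgoln2, at 0.0415, where its own SD over arrays was 0.258. Slc6a6 was closest to Ptn (0.0207) and Mpeg1 (0.0243), with an own SD of 0.165. Akr1b1 was nearest to Fbln5 (0.0195) and Sult2b1 (0.0396), and Slc14a2 to Prss30 (0.0173) and Fmnl3 (0.0218). Nfat5 was nearest to Atat1 (0.00666) and Spcs2 (0.0148), and Sord to Mga (0.0161) and Ccnt2 (0.0169). These are descriptions over 6 arrays, and no member was among the 2 nearest genes of another.

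Related genes of osmolyte, urea and hypertonicity handling gave no call past the adjusted threshold either. Of 62 such genes, 56 had a probe set and 50 were tested, with 0 past an adjusted p of 0.05 and 6 at an unadjusted p under 0.05, where 6.62% of all tested genes reached that level. Of the 6, Akr1b7, Slc14a1 and Aqp2 were higher in congenic kidneys, a direction taken by 2.96% of all tested genes at that level, and Gpcpd1, Csad and Agmat were lower, as were 3.67% of all tested genes. Groups did not overlap for 10 of the 50 related genes, where 12.7% of all tested genes had groups that did not overlap. The same share stands beside each such related gene below. Arg1 passed the filter on low signals through 1 congenic array. Without it, 27 of 49 genes had a positive log2 fold change and 22 a negative one, and the median was 0.018. The 27 still include Akr1b7, Akr1b8 and Cps1, each with 1 high congenic array.

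Of the genes around sorbitol and fructose, 5 of 6 had a log2 fold change above 0, and their median was 0.033. Akr1b7, an aldose reductase-like enzyme known from the mouse adrenal cortex, measured 58.3, 101 and 2214 on the congenic arrays, against 32.2, 26.9 and 18.2 on the S arrays. The groups did not overlap and the log2 fold change was 2.70 (SE 0.978, limma adjusted p = 0.743). Congenic array 3, with 2214, is the array on which the adrenal markers summed to 5506. Without it the log2 fold change was 1.18 (limma adjusted p = 0.658), from the 58.3 and 101 of congenic arrays 1 and 2. The adrenal sums were 137 and 141 on these 2 arrays and 128 to 142 on the S arrays. The mean S signal of Akr1b7, 25.7, lay near the filter cut of about 25.6. The part of adrenal transcripts in the Akr1b7 values was not tested. Akr1b8, a relative of Akr1b7, had 552 on congenic array 3, against 61.5 to 82.1 on the other 5 arrays. It was at -0.25 without that array. Akr1a1, the aldehyde reductase, and the fructokinase gene Khk were at 0.025 and 0.021, and hexokinase gene Hk1 was at -0.076. Another probe set of Hk1, too dim to be tested, was at 0.23.

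**Figure D4:**
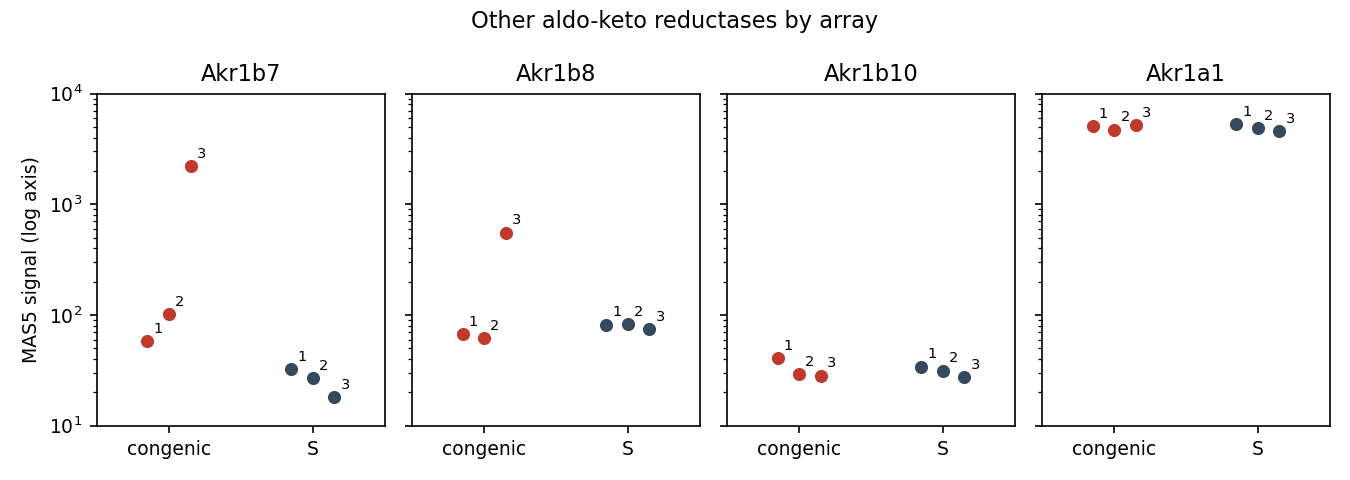
MAS5 signal on a log axis of 4 aldo-keto reductase genes other than Akr1b1 on the 3 congenic (red) and 3 S (dark blue) arrays, with replicate numbers. Congenic array 3 stands apart for Akr1b7 (2214) and Akr1b8 (552) but not for Akr1b10 or Akr1a1; levels are not comparable between genes.

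For myo-inositol, 5 of 7 genes had a log2 fold change above 0, and their median was 0.018. The renal catabolic enzyme gene Miox was at 0.019 and the second sodium-coupled inositol transporter gene Slc5a11 at 0.0061. The named genes were the inositol kinase gene Itpk1 at 0.20 (0.097 without congenic array 3), the inositol monophosphatase gene Impa2 at -0.13 (-0.064 without congenic array 2) and the proton-coupled carrier gene Slc2a13 at -0.13, the last of which was at -0.0074 without congenic array 1. Other probe sets of Itpk1 and Slc2a13 were at 0.46 and -0.011. The difference between Slc5a3 and these genes was not tested.

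For betaine, choline and glycerophosphocholine, 8 of 11 genes had a log2 fold change below 0, and their median was -0.081. Gpcpd1, whose product breaks down glycerophosphocholine, measured 74.3, 57.5 and 67.3 on the congenic arrays, against 109, 105 and 72.0 on the S arrays. Congenic array 1 lay above S array 3, and the log2 fold change was -0.42 (SE 0.147, limma adjusted p = 0.740). Another probe set of Gpcpd1, too dim to be tested, was at 0.10. The choline dehydrogenase gene Chdh, for the first step of betaine synthesis, was at -0.10, and Slc6a13, a close relative of Slc6a12, at -0.19. Of 3 tested genes around taurine, Csad, which encodes the decarboxylase that makes its precursor hypotaurine, measured 832, 907 and 868 on congenic and 1107, 997 and 959.8 on S arrays. These groups did not overlap, and the log2 fold change was -0.23 (SE 0.0677, limma adjusted p = 0.710). Cdo1, the enzyme before it, was at -0.063, and at 0.027 without congenic array 1. The creatine transporter gene Slc6a8 was at 0.13, and at 0.21 by its other probe set.

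For urea and arginine, 8 genes were tested, 1 of which, Arg1, passed the filter only through its signal on congenic array 1. Of the other 7, 5 had a log2 fold change above 0, and the median was 0.068. Those 5 include Cps1 at 1.38, which was high on congenic array 1 only and is also among the 7 hepatocyte markers. Slc14a1, which encodes the urea transporter UT-B of red cells and the descending vasa recta, measured 107, 119 and 134 on the congenic arrays, against 99.3, 99.0 and 97.7 on the S arrays. All congenic arrays lay above all S arrays, and the log2 fold change was 0.24 (SE 0.0974, limma adjusted p = 0.750), and 0.17 without congenic array 3. The summed signal of 3 red cell markers was 7783 to 8444 on congenic and 7168 to 8071 on S arrays, and their part in this value was not tested. A second probe set of Slc14a1 was too dim to be tested, and its groups overlapped. It was at 11.5 to 27.0 on congenic and 11.2 to 27.2 on S arrays, a log2 fold change of 0.11. Agmat, annotated as an agmatinase, a type of enzyme that releases urea from agmatine, measured 1108, 1217 and 1218 on congenic and 1537, 1484 and 1288 on S arrays. The S arrays all lay higher, and the log2 fold change was -0.28 (SE 0.0743, limma adjusted p = 0.710). Arg1 and Cps1, the hepatic arginase and the first enzyme of the urea cycle, had 140.3 and 711 on congenic array 1, against 14.8 to 27.4 and 27.6 to 32.1 on the other 5 arrays. Arg1 was at a log2 fold change of 0.76, and at 0.11 without that array, which carried the hepatocyte transcripts. Arg2, the arginase of the kidney, was at 0.086.

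Among 15 tested genes of the hypertonicity response and the regulation of Nfat5, 8 had values above 0 and 7 below, and the median was 0.0057. Aqp2, the gene of the vasopressin-regulated water channel and also among the collecting duct markers, measured 3002, 3418 and 3175 on congenic and 2817, 2466 and 2883 on S arrays. The groups did not overlap, and the log2 fold change was 0.23 (SE 0.0701, limma adjusted p = 0.710). Hspa4l, known as the osmotic stress protein Osp94, was at 0.094 and the amino acid carrier gene Slc38a2 at 0.028. Slc38a2 was at -0.034 without congenic array 3 and at -0.0067 without congenic array 2. S100a4 and the cyclooxygenase gene Ptgs2 were at -0.13 and -0.22, and Ptgs2 was at -0.12 without S array 3. The kinase gene Mapk14 was at 0.0057 and the volume-regulated channel gene Lrrc8a at -0.029.

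**Figure D5:**
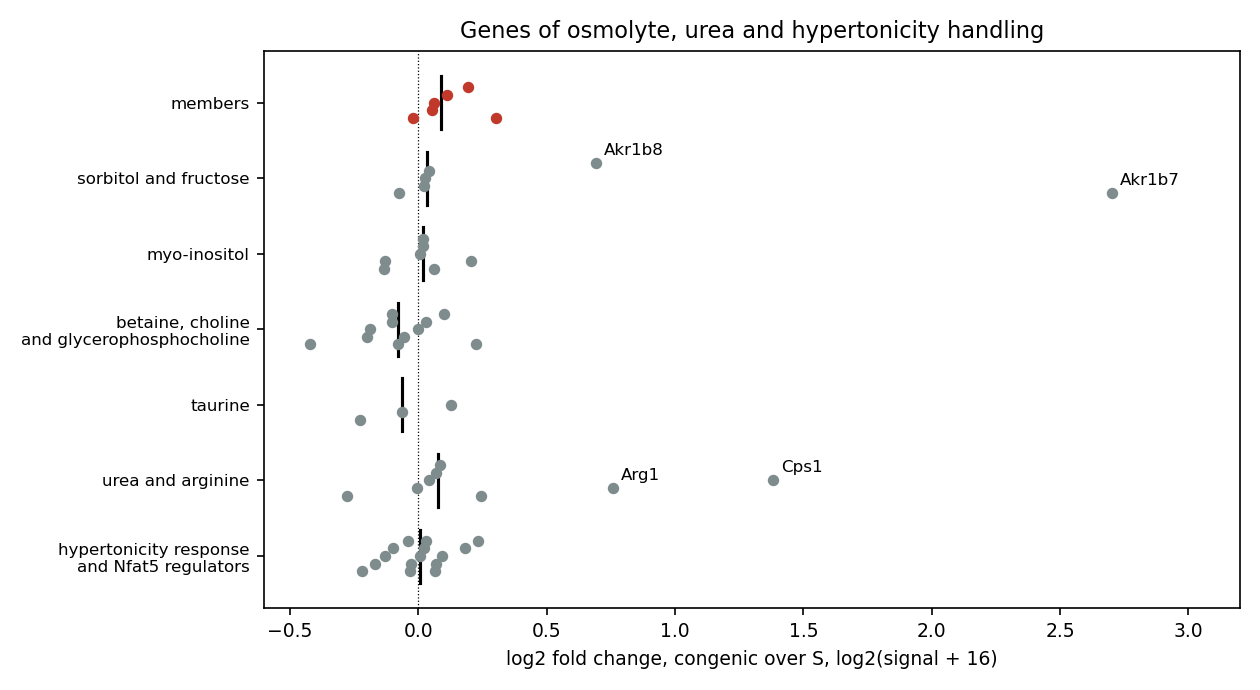
Log2 fold change of congenic over S (x axis, log2(signal + 16) scale) of the 6 measured members (red) and of 50 tested genes of related lists (grey), 1 row per list, with the median as a black bar; genes beyond 0.5 are named. Medians lie between -0.081 and 0.086, and the 4 named genes are those with 1 high congenic array.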

How the data were processed

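The deposited values were intensities, 1 linear MAS5 signal per probe set and array, per the submitters' processing notes. Which MAS5 version, scaling target and detection calls were used is not given in the sources used here. Without the top and bottom 2% of probe sets, the mean signal was 150 to 150.1 on every array, so a change shared by most transcripts would not show. Arrays were grouped by sample title. Their small number limits the precision: log2 fold changes had a median SE of 0.105. Exact permutation of 3 against 3 arrays cannot give a p below 0.1.

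Probe sets took the platform's gene symbols, brought up to date by gene ID in RefSeq's GRCr8 table. Of them, 20826 had 1 symbol, 20758 of these matched, 436 had several symbols and 9780 had none. The 57 control probe sets and 12417 dim ones were left out. On log2(signal + 16), limma 3.58.1 (R 4.3.3; lmFit and eBayes, with trend) gave 2-sided p-values, adjusted by Benjamini-Hochberg over all 18625 probe sets, with a threshold of 0.05; the procedure was tested on simulated data. A listed gene was represented by its brightest probe set. Named were all tested or dim member probe sets, the 3 genes of each related list with the smallest unadjusted p, Slc14a1, Hspa4l, Aqp2 and Slc38a2, and nearest genes, 2 sought per member. Other genes, such as Khk, Akr1a1, Miox, Arg2, Mapk14 and Lrrc8a, were named after their values were seen. Members and lists were chosen with earlier results of these data known. Deviations of arrays with the same replicate number correlated at 0.0136 to 0.0368. These low values gave no sign that the numbers pair the arrays, but arrays with different numbers were not compared. Alternatives were other pseudocounts, filters and normalizations, eBayes without trend, a block for the replicate number, the mean over all probe sets of a gene, and leaving out each array.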

Additional observations from a re-analysis of the deposited data

How the results depend on the processing

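For the brightest probe sets of the 6 member genes, 86 of 90 refitted fold changes kept their direction and stayed short of the adjusted threshold. The other 4 changed sign. Part of the 86 could not change sign, because the filters, eBayes without trend and the replicate block leave each fold change as it was. Pseudocounts of 1 and 64, no filter, a filter at the 60th percentile, quantile normalization, median centring and eBayes without trend changed none of these signs and called 0 members. The unadjusted limma p of Slc5a3 was 0.0759 without trend, 0.0515 without a filter and 0.0254 to 0.0385 in the others of these settings. That of Slc6a6 was 0.105 without trend and 0.0623 without a filter. It was 0.0524 to 0.0534 with median centring, quantile normalization or the stricter filter, and 0.0478 and 0.0498 with pseudocounts of 1 and 64. With 1 array left out, the unadjusted limma p ran from 0.0103 to 0.126 for Slc5a3 and from 0.000852 to 0.172 for Slc6a6. With single arrays left out, log2 fold changes ranged from -0.0069 to 0.23 for Akr1b1, from -0.013 to 0.087 for Nfat5 and from -0.041 to 0.022 for Sord, changing sign without S array 2, S array 1 and congenic array 3. They ranged from 0.15 to 0.40 for Slc5a3, 0.14 to 0.30 for Slc6a6 and 0.0081 to 0.13 for Slc14a2. The number of genes with a positive value ranged from 4 to 6, that with groups that did not overlap from 0 to 1 (over all tested genes, 21.0% to 27.0% did not overlap in these smaller comparisons), the median from 0.054 to 0.14, and the number of probe sets called over the whole table from 0 to 1, the 1 without congenic array 2.

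Other probe sets and genes that changed sign with an array left out ranged from -0.090 to 0.045 (Nfat5 1372772_at), -0.041 to 0.16 (Slc14a2 1398312_s_at), -0.32 to 0.065 (Slc14a2 1371205_at), -0.25 to 1.19 (Akr1b8), -0.15 to 0.027 (Cdo1) and -0.034 to 0.13 (Slc38a2). Of the 20 named related genes, 13 moved by over 1.5 times. The mean over all probe sets of a gene, dim ones included, had no test and is not among the 90. It gave a median of 0.040, changed the sign of 2 genes, Akr1b1 (-0.043) and Sord (0.030), and brought Slc5a3 to 0.087. Chosen after seeing the data, congenic array 2 alone against S leaves out both arrays with transcripts of other organs. It gave a median of 0.17, 2 genes whose groups did not overlap (as for 49.4% of all tested genes with 1 array against 3), and changed signs for Sord (0.019), Slc6a6 1368778_at (-0.025), Slc14a2 1398312_s_at (-0.043) and Akr1b8 (-0.30). Its lone congenic array is assumed to vary like the S arrays. The causes of these changes were not tested.

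With the replicate block, the median stayed at 0.086, since the block leaves the fold changes as they were, and 0 probe sets were called. The unadjusted limma p was 0.0277 for Slc5a3 and 0.0142 for Slc6a6. Whether the replicate numbers pair the arrays is not known, so this fit was not used as evidence.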
